A study of Mus musculus with 4 samples.

Results

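The neurotrophin and GDNF family signalling genes examined here are *Bdnf*, *Ntrk2*, *Ntrk3*, *Ngfr*, *Ret*, *Gfra1*, *Gfra2* and *Gfra3*. They were taken by symbol from the gene lists of the deposited matrices and make up 8 of the 33456 genes listed. Each was followed as raw unique molecular identifier (UMI) counts, which count captured RNA molecules, in every library, cell type and neuron subset. The study performed single cell RNA-seq on dissociated dorsal root ganglia (DRG) of C57BL/6 mice aged 8 to 12 weeks, all of them females per the methods. There were 2 control libraries from uninjured ganglia and 2 injury libraries from ganglia taken 3 days after crush of the sciatic nerve. The titles name L4 ganglia and the methods L4 and L5, the cells of several mice were pooled per batch, and the treatment label of every sample, controls included, names the crush, so the groups rest on the sample titles.

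Neurotrophins are secreted growth factors that keep sensory neurons alive and shape their targets. BDNF, the product of *Bdnf*, binds TrkB, the receptor tyrosine kinase encoded by *Ntrk2*, and neurotrophin-3 (*Ntf3*) binds TrkC, encoded by *Ntrk3*. *Ngfr* encodes p75NTR, a receptor without a kinase that binds all neurotrophins. Ligands of the GDNF family bind a lipid-anchored co-receptor, GFRα1 (*Gfra1*) for GDNF, GFRα2 (*Gfra2*) for neurturin and GFRα3 (*Gfra3*) for artemin, and the pair then engages the shared kinase RET. In the DRG these receptors are known for dividing sensory neurons into classes. The matrices give counts per gene and not per transcript form, so full-length TrkB and TrkC cannot be told apart here from their truncated forms without a kinase.

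On mouse build mm10 (GRCm38) and the GENCODE annotation of that build, every one of these genes is protein coding. *Bdnf* lies at chr2:109674700-109727007 on the plus strand, *Ntrk2* at chr13:58806569-59133970 on the plus strand, *Ntrk3* at chr7:78175959-78738012 on the minus strand, *Ngfr* at chr11:95568818-95587735 on the minus strand and *Ret* at chr6:118151745-118197718 on the minus strand. *Gfra1* lies at chr19:58235604-58455909 on the minus strand, *Gfra2* at chr14:70890120-70979838 on the plus strand and *Gfra3* at chr18:34689898-34720387 on the minus strand.

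The 4 matrices held 6975 barcodes, with totals of 5585909 to 11210875 UMIs per library. Cells were named by marker genes that include none of the 8 genes, and the names are written as neuron-like, satellite glial cell (SGC)-like and so on. Neurons were taken from all barcodes, because 240 of the 342 neuron-like cells lay above the upper UMI limit of the methods. Control replicate 1 gave 25 of them, control replicate 2 gave 192, injury replicate 1 gave 38 and injury replicate 2 gave 87, and their median depth was 20863.5 UMIs. The other types were limited as in the methods, and 5309 cells were named and used in all. Cells gated on *Ly6c2* and *Plac8* were led by *Mpo*, *Ctsg* and *Elane* and are called by their genes, as are *Scn7a*-positive glia. All 14 neuronal markers, and 9 of the 10 SGC markers, were over 4-fold higher in the cells named for them. The same markers gave the cells their names, so this count is no separate check of the names. Across the libraries, 20 barcode sequences occurred in 2 libraries each.

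The 8 genes split into those held by neurons and those shared with other cells. Neuron-like cells carried 95.4% of all *Bdnf* UMIs in the 4 matrices, 94.4% of *Ret* and 92.8% of *Gfra3*. They carried 60.4% of *Ngfr*, 59.6% of *Ntrk3*, 46.0% of *Gfra1*, 43.4% of *Gfra2* and only 4.63% of *Ntrk2*, of which SGC-like cells held 68.5%. Connective tissue-like cells, a fibroblast population, held 35.7% of *Gfra1* and 29.2% of *Ngfr*. These shares take in the named cells of all barcodes, without the limits of the methods, and 7.91% of *Ntrk2* UMIs lay in barcodes without a name. They also depend on how many cells of each type were recovered. The levels that follow are counts scaled to the same total (CPM), with the limits applied to types other than neurons. They come from the summed cells of a type in each library with at least 10 of them.

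**Figure D1:**
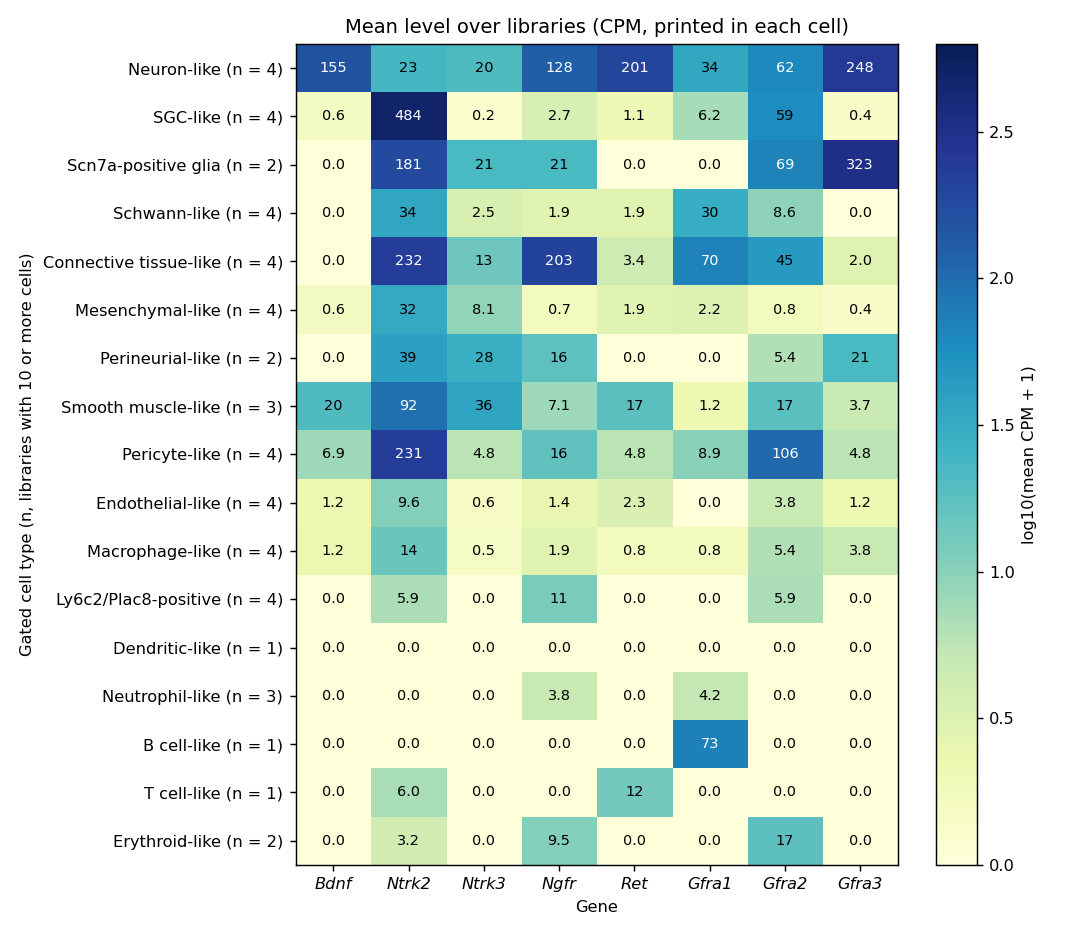
Mean CPM of each gene (columns) in each gated cell type (rows), averaged over the n libraries with at least 10 cells and coloured on a log10(CPM + 1) scale. *Bdnf* and *Ret* stand out in the neuron-like row, *Ntrk2* is highest in SGC-like cells at 483.5 CPM, and *Ngfr* and *Gfra1* reach 203 and 70.3 CPM in connective tissue-like cells.

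*Bdnf*, the ligand, was at 169 and 164 CPM in the neuron-like cells of the 2 controls (replicate 1 first, here and in what follows) and at 75.4 and 212 CPM in those of the injury libraries, a mean of 155 ± 57.3 CPM (SD, n = 4 libraries). Smooth muscle-like cells came next, with 24.4 and 0 CPM in the control libraries and 35.3 CPM in injury replicate 1, from 16 UMIs in 10 of 191 cells. Pericyte-like cells followed with 7 UMIs in 5 of 228 cells, and every other type had a mean of 1.24 CPM or less. The smooth muscle value rests on few UMIs. Per 100 UMIs of the 14 neuronal markers there were 0.93 *Bdnf* UMIs in neuron-like cells, 0.404 in SGC-like cells and 27.1 in smooth muscle-like cells (25.0 and 0 in the controls and 43.5 in injury replicate 1). The part of neuronal RNA in the smooth muscle value was not tested. None of the 684 connective tissue-like cells had a *Bdnf* UMI, a count that limits the share of cells with a UMI, not of cells that express the gene, to 0.439%.

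*Ntrk2*, the receptor for BDNF, was highest in SGC-like cells and reached further into connective tissue-like and vessel wall cells than into neurons. SGC-like cells had 326.5 and 555.5 CPM in the control libraries and 494 and 558 CPM after injury (483.5 ± 109, SD, n = 4), and the lowest of these lay above every library of every other type. Connective tissue-like cells (218, 194, 273 and 244 CPM, mean 232 ± 34.1) and pericyte-like cells (200.2, 286, 255 and 183 CPM, mean 231 ± 47.6) overlapped each other. *Scn7a*-positive glia had 106 and 255 CPM in the 2 libraries with enough cells, and smooth muscle-like cells 92.2 ± 20.5 CPM (n = 3). Schwann-like cells were low, at 33.9 ± 14.2 CPM (n = 4), with a UMI in 16 of 273 cells. Neuron-like cells had 7.38 and 34.1 CPM in the control libraries and 13.6 and 36.0 CPM in the injury libraries (22.8 ± 14.4, n = 4), which overlapped the Schwann-like cells and lay below the other types named here.

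The low neuronal value of *Ntrk2* was set beside markers of SGC. Neuron-like cells carried 393 to 811 CPM of the 10 summed SGC markers, which SGC-like cells held at 13190 to 20000 CPM. Per 100 UMIs of those markers there were 2.48 to 2.98 *Ntrk2* UMIs in SGC-like cells of the 4 libraries and 1.17 to 5.34 in neuron-like cells, and over all libraries 4.16 in neuron-like, 4.24 in macrophage-like and 4.91 in endothelial-like cells. The ratio was 126 in connective tissue-like and 48.2 in pericyte-like cells. Over all neurons the ratio was thus close to that in macrophage-like cells, but it varied by library. Control replicate 1 had 7.38 CPM of *Ntrk2* and 633 CPM of the markers, and injury replicate 1 had 13.6 and 393 CPM. In injury replicate 2, 1 neuron gave 60 of the 106 *Ntrk2* UMIs. The part of SGC RNA in the neuronal *Ntrk2* level was not tested.

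*Ntrk3*, the receptor for neurotrophin-3, was low throughout, with 337 UMIs in all barcodes. Smooth muscle-like cells had 32.5 and 46.35 CPM in the control libraries and 28.25 CPM in injury replicate 1 (35.7 ± 9.47, SD, n = 3), above the highest neuron-like library. An *Ntrk3* UMI was found in 21 of 191 smooth muscle-like cells, so these values rest on few UMIs. Neuron-like cells had 13.8, 24.4, 24.1 and 16.6 CPM (19.7 ± 5.32, n = 4), which overlapped connective tissue-like cells (12.8 ± 4.02) and mesenchymal-like cells (8.09 ± 6.05). Perineurial-like cells (10.7 and 44.7 CPM, 5 UMIs in all) and *Scn7a*-positive glia (0 and 42.5 CPM, 6 UMIs) lay between these means on few UMIs. Of 1350 SGC-like cells, 2 had an *Ntrk3* UMI.

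*Ngfr*, which encodes p75NTR, was shared by connective tissue-like cells and neurons. Connective tissue-like cells had 278 and 239 CPM in the control libraries and 177 and 119 CPM after injury (203 ± 69.7, SD, n = 4). Neuron-like cells had 137.5, 117, 89.05 and 169 CPM (128 ± 33.6, n = 4), so the ranges of the 2 types overlapped. All other types had a mean of 21.3 CPM or less, and 1 of 273 Schwann-like cells had an *Ngfr* UMI. Per 100 UMIs of the neuronal markers, *Ngfr* gave 0.738 UMIs in neuron-like and 186 in connective tissue-like cells.

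*Ret*, the kinase of the GDNF family receptors, was a neuronal gene with a small spread relative to its mean. Neuron-like cells had 224 and 194 CPM in the control libraries and 189.8 and 194 CPM after injury (201 ± 15.8, SD, n = 4). Smooth muscle-like cells had 7 *Ret* UMIs in 7 of 191 cells, at a mean of 16.8 ± 16.1 CPM (n = 3), and the remaining types had means of 12.0 CPM or less.

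The co-receptors of RET had different homes. *Gfra3* was at 200.2 and 198 CPM in neuron-like cells of the control libraries and at 336 and 257 CPM after injury (248 ± 65.0, SD, n = 4). Its highest mean was in *Scn7a*-positive glia, on few UMIs, 22 in 12 of 48 cells: 477 CPM in control replicate 1 and 170.1 CPM in injury replicate 1, where 3 UMIs would be 159 and 42.5 CPM. Per 100 UMIs of the neuronal markers there were 1.35 *Gfra3* UMIs in neuron-like cells and 105 in these glia. No *Gfra3* UMI was found in 273 Schwann-like cells, which limits the share of cells with a UMI at this depth to 1.1% and says nothing of expression below it.

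*Gfra2* had no single leading type. Pericyte-like cells had 133, 114, 116 and 61.1 CPM (106 ± 31.3, SD, n = 4), neuron-like cells 95.04, 85.3, 17.9 and 49.2 CPM (61.9 ± 35.3), SGC-like cells 71.4, 58.4, 38.5 and 66.4 CPM (58.7 ± 14.5) and connective tissue-like cells 73.5, 46.6, 24.9 and 33.6 CPM (44.7 ± 21.2), in the order of control and injury replicates 1 and 2. *Scn7a*-positive glia, at 53.0 and 85.1 CPM from 7 UMIs in all, had a mean next to that of the neurons. Neighbours in this order overlapped. *Gfra1* was at 132, 54.1, 50.8 and 44.3 CPM in connective tissue-like cells (70.3 ± 41.4), at 19.4, 11.9, 71.7 and 31.6 CPM in neuron-like cells (33.7 ± 26.6) and at 39.25, 34.0, 22.3 and 23.4 CPM in Schwann-like cells (29.7 ± 8.27), again with overlap between neighbours. In B cell-like cells *Gfra1* gave 8 UMIs in 7 of 44 cells, of which control replicate 1, the library with enough of them, had 3.

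Sequences before a RefSeq start site of *Ngfr* and *Gfra1* are shown because both genes were highest, among types with all 4 libraries, in connective tissue-like cells. Of the 8 genes, 4 matched the RefSeq promoter table (GRCm38.p6), and for these 2 the 250 bases before the start site are printed 5′ to 3′ on the strand of the gene, with matches to GGGCGG and CAGCTG on either strand in capitals. TATAAA was searched in the same way and the motifs do not overlap. The RefSeq start sites differ from the outer ends of the GENCODE loci given above, so the *Gfra1* window lies inside that locus and the *Ngfr* window overlaps the end of its locus.
Ngfr, chr11:95587699-95587948, minus strand: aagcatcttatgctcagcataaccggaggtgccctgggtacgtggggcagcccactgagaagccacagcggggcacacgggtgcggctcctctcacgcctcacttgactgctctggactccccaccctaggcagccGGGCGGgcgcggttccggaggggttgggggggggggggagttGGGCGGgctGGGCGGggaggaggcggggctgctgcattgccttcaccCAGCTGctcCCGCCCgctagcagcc
Gfra1, chr19:58455399-58455648, minus strand: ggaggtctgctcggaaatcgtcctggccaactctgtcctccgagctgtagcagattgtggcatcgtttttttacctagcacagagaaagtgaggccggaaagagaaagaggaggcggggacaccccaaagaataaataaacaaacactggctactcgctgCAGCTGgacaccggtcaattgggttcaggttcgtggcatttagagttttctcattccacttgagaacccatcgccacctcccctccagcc
The *Ngfr* window held GGGCGG 4 times and CAGCTG once in 250 bases with a GC content of 70.4%. The *Gfra1* window, with a GC content of 52.4%, held CAGCTG once and no GGGCGG, and neither held TATAAA. Of 32851 promoter windows of this length, 32.7% held GGGCGG, 13.0% CAGCTG and 12.4% TATAAA, so the shared CAGCTG is a description of these letters and nothing more.

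Each type was then compared with the mean of the other types over the type and library sums, with the library in the model (edgeR's quasi-likelihood test, Benjamini-Hochberg adjusted p under 0.05 and over 4-fold). Of the 136 pairs of gene and type, 28 were called, in 9 types. On simulated counts this fit made more false calls than its adjusted p threshold allows. In neuron-like cells 7 of the 8 genes were called, all but *Ntrk2*, against 21.7% of all genes tested there. The adjusted p was 2.7e-25 for *Gfra3*, 6.57e-25 for *Ret* and 2.86e-21 for *Bdnf*. In connective tissue-like cells 5 of 8 were called (*Ngfr*, *Gfra1*, *Ntrk2*, *Gfra2* and *Ntrk3*), against 15.7% of all genes. In *Scn7a*-positive glia 4 were called (*Gfra3*, *Gfra2*, *Ntrk2* and *Ntrk3*) against 6.04%, on 6 to 24 UMIs each, and in smooth muscle-like cells 4 (*Ntrk3*, *Bdnf*, *Ntrk2* and *Ret*) against 12.5%. Pericyte-like cells had 3 (*Gfra2*, *Ntrk2* and *Bdnf*) against 13.2% and SGC-like cells 2 (*Ntrk2* and *Gfra2*) against 16.4%. Schwann-like cells had *Gfra1*, against 13.2%, and *Ntrk3* was the 1 gene called in mesenchymal-like cells (14.1% of all genes) and in perineurial-like cells (8.29%).

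Fold changes of this comparison are not given, since types in which a gene had no UMI enter it with a fitted value that depends on the prior count. The calls share this limit, because they require a fold over 4. Each type was therefore also compared with all other named cells of the same library as 1 sum. In this alternative, chosen after seeing the data, each type weighs by its UMIs, so the neurons weigh beyond their number of cells. It left 7 calls. *Gfra3*, *Ret* and *Bdnf* remained in neuron-like cells, with log2 fold changes of 6.51 ± 0.31, 6.45 ± 0.35 and 6.29 ± 0.45 (SE) and adjusted p of 1.29e-06, 2.12e-06 and 7.38e-06, where 11.4% of genes were called. *Ntrk2* remained in SGC-like cells (3.19 ± 0.24, adjusted p = 3e-06, 4.54% of genes). *Gfra1* and *Ngfr* remained in connective tissue-like cells (2.66 ± 0.34 and 2.49 ± 0.34, adjusted p = 0.00018 and 0.000254, 4.42% of genes), and *Ntrk3* in smooth muscle-like cells (2.01 ± 0.50, adjusted p = 0.000385, 4.22% of genes).

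Neurons had far more UMIs per cell than other cells, so the share of cells with a UMI was also computed at an equal 1000 UMIs per cell. In neuron-like cells it was 21.5% for *Gfra3*, 14.4% for *Ret*, 12.7% for *Bdnf*, 10.5% for *Ngfr*, 4.79% for *Gfra2*, 3.12% for *Ntrk2*, 2.4% for *Ntrk3* and 1.49% for *Gfra1*. Without thinning the shares were 73.4%, 73.7%, 60.2%, 52.3%, 32.5%, 29.2%, 29.2% and 17.3% of 342 cells. In macrophage-like cells, taken as background for RNA free in the suspension (median 4092.5 UMIs), the thinned shares were 0.0529% to 0.818%, the highest for *Ntrk2*. At equal depth, *Ntrk2* was found in 36.7% of SGC-like, 21.8% of pericyte-like and 19% of connective tissue-like cells, *Ngfr* in 17% of connective tissue-like cells, and *Gfra2* in 11.8% of pericyte-like and 5.3% of SGC-like cells.

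Other ligands of these receptors were highest outside the neurons. *Ntf3*, the TrkC ligand, was at 195, 162 and 166 CPM in smooth muscle-like cells of control replicates 1 and 2 and injury replicate 1 (174 ± 17.9, SD, n = 3), the type in which *Ntrk3* was highest, and at 29.6 ± 23.0 CPM in pericyte-like cells (n = 4). Neurturin (*Nrtn*), which binds GFRα2, was at 42.9 and 67.1 CPM in perineurial-like cells, from 12 UMIs in 10 of 48 cells. *Gdf15*, a stress-induced ligand whose receptor GFRAL also signals through RET, was at 42.3 ± 8.64 CPM in macrophage-like cells, and no *Gfral* UMI was found. Each of these values belonged to a pair of ligand and type that was called against the mean of the other types.

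Several ligands were hardly seen. *Gdnf* gave 6 UMIs, artemin (*Artn*) 11, *Ntf5* 3 and *Pspn* none in the 4 matrices, so changes in them were not detectable at this depth. Of the 6 *Artn* UMIs in smooth muscle-like cells, each came from a different cell. Of a list of 49 further symbols of pathway genes, 48 were in the files and 27 were tested between types. In neuron-like cells 11 of these 27 were called, where 21.7% of all genes were. They were *Gfra4*, the fourth co-receptor of RET, the adaptors *Dok4*, *Dok6* and *Shc2*, and the TrkB scaffold *Kidins220*. The others were the p75NTR partners *Ngfrap1* and *Maged1*, with *Ncam1*, *Sdc3*, *Sorl1* and *Sos1*. In SGC-like cells 9 were called, against 16.4% of all genes, including the sorting receptors *Sort1* and *Sorcs1* and *Ncam1*, an alternative GDNF receptor. Connective tissue-like, pericyte-like and smooth muscle-like cells had 10 each, against 15.7%, 13.2% and 12.5% of all genes.

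Within the neurons, 209 of 342 could be placed in a subset by other markers, of which 122 were peptidergic. A subset was used in a library with at least 5 such neurons, which left 4 libraries for the peptidergic subset, control replicate 2 and injury replicate 2 for the nonpeptidergic, large-diameter neurofilament and cold subsets, and control replicate 2 alone for C-low threshold mechanoreceptors. The 8 genes divided the subsets, with 10 of 32 pairs of gene and subset called against the mean of the other subsets in edgeR's quasi-likelihood test. That fit had a term for the library. Control replicate 1 and injury replicate 1 gave a peptidergic sum alone, so they added nothing to the contrast. Its p-values, those of the peptidergic subset included, rest on control replicate 2 and injury replicate 2.

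**Figure D2:**
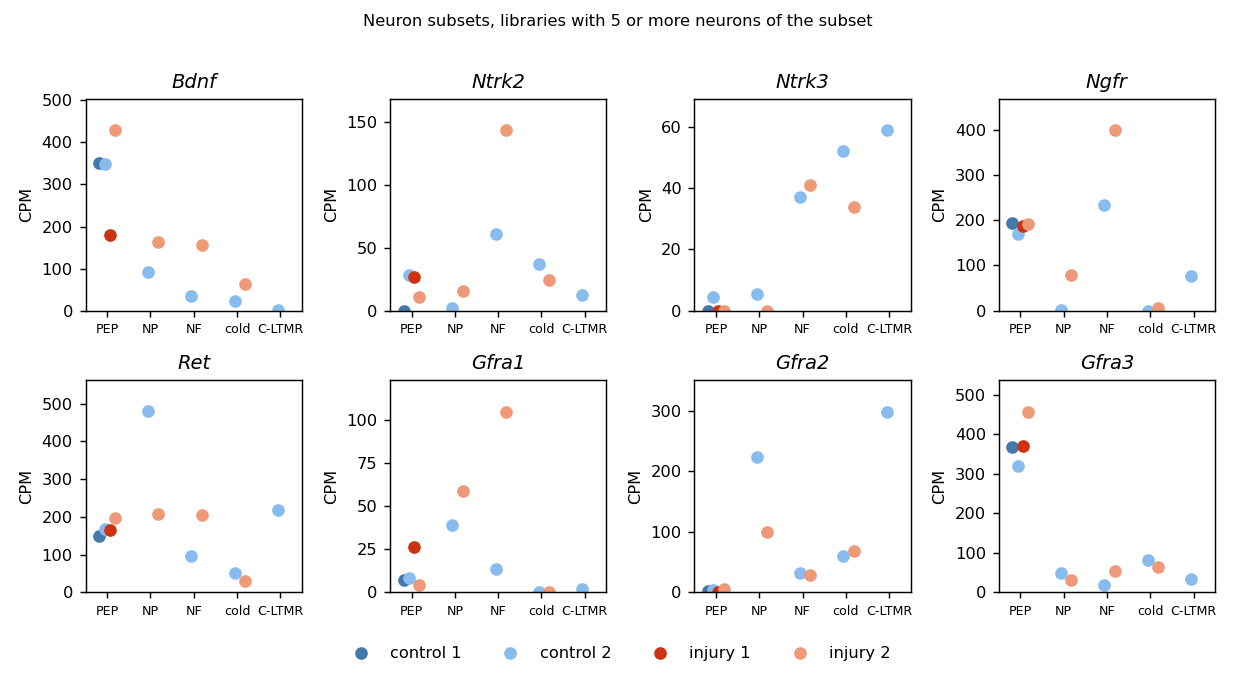
CPM of each gene in neuron subsets of each library with at least 5 such neurons (PEP, peptidergic; NP, nonpeptidergic; NF, large-diameter neurofilament; C-LTMR, C-low threshold mechanoreceptor). The 4 peptidergic points of *Gfra3* lie between 320 and 457 CPM and all other points of that gene at 82.0 CPM or less, while the peptidergic points of *Gfra2* lie at 5.36 CPM or less.

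Peptidergic neurons, which release neuropeptides such as substance P and CGRP, were marked by *Gfra3* and *Bdnf*. *Gfra3* was at 368.5 and 320 CPM in the control libraries and at 371 and 457 CPM after injury, and in no other subset above 82.0 CPM (adjusted p = 2.46e-06). *Bdnf* was at 352 and 349 CPM in the control libraries and at 180.1 and 428.5 CPM after injury, against 164 CPM or less in each other subset (adjusted p = 3.48e-05). *Ngfr* was also called there, at 195, 169, 188 and 191.5 CPM (adjusted p = 0.00437), so 3 of the 8 genes were, against 3.26% of all genes. Its level in large-diameter neurofilament neurons was higher, and with a minimum of 10 neurons, which left that subset alone for comparison, the log2 difference turned to -0.87. *Gfra2* was nearly absent, with 12 UMIs in 9 of 122 neurons.

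Nonpeptidergic neurons, small neurons marked by *Mrgprd*, carried *Ret* with *Gfra2* and *Gfra1*. *Gfra2* was at 225 CPM in control replicate 2 and 99.7 CPM in injury replicate 2 (adjusted p = 4.16e-06), and *Gfra1* at 38.9 and 58.8 CPM (adjusted p = 0.0153), against 2.6% of all genes called in this subset. *Ret* was at 479 and 207 CPM and had a log2 difference of 1.81 ± 0.33 (SE, adjusted p = 0.00148), below the 4-fold limit. All 19 of these neurons had a *Ret* UMI and 17 had a *Gfra1* UMI.

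Large-diameter neurofilament neurons, which include mechanosensors and proprioceptors, had both *Ntrk2* and *Ntrk3* called. *Ntrk3* was not particular to them, since it was also called in cold neurons. *Ntrk2* was at 60.7 CPM in control replicate 2 and 143 CPM in injury replicate 2 (adjusted p = 0.00121), *Ntrk3* at 37.0 and 40.9 CPM (adjusted p = 0.00905), *Ngfr* at 235 and 399 CPM (adjusted p = 0.000159) and *Gfra1* at 13.2 and 104 CPM (adjusted p = 0.00873), so 4 of 8 genes were called against 3.93% of all genes. Per 100 UMIs of SGC markers *Ntrk2* gave 10.9 and 32.6 UMIs in these neurons, above the 2.78 and 2.98 in SGC-like cells of the same libraries. Single neurons weighed heavily. In injury replicate 2, 1 neuron gave 60 of the 70 *Ntrk2* UMIs, 1 gave 117 of the 195 *Ngfr* UMIs and 1 gave 24 of the 51 *Gfra1* UMIs, and in control replicate 2, 1 neuron gave 4 of the 5 *Gfra1* UMIs and 1 gave 8 of the 14 *Ntrk3* UMIs.

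In cold neurons, marked by *Trpm8* and *Foxp2*, *Ntrk3* was at 52.2 and 34.0 CPM and was the 1 gene called (adjusted p = 0.0353, against 2.17% of all genes), on 7 UMIs in each library. No *Gfra1* UMI was found in these 17 neurons. The 15 C-low threshold mechanoreceptors of control replicate 2, which had no replicate and no test, were at 298 CPM for *Gfra2*, 218.5 CPM for *Ret* and 58.8 CPM for *Ntrk3*, and at 2.1 CPM for both *Bdnf* and *Gfra1*.

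Of the co-receptors, *Gfra1* was most often found with *Ret* in the same neurons. With at least 3 UMIs required of each gene, 168 of 342 neurons (49.1%) had *Ret*. Of the 23 neurons with *Gfra1*, 20 (87.0%) also had *Ret*, as did 38 of 53 (71.7%) with *Gfra2*, 33 of 54 (61.1%) with *Gfra4* and 113 of 192 (58.9%) with *Gfra3*. Such shares were not particular to co-receptors. *Ret* was also in 91 of 125 neurons with *Bdnf* (72.8%) and in 75 of 108 with *Ngfr* (69.4%). With *Ntrk2* it was in 17 of 26 (65.4%) and with *Ntrk3* in 11 of 22 (50.0%). *Ngfr* was in 108 of 342 neurons (31.6%). It was in 15 of the 23 neurons with *Gfra1*, in 14 of 26 with *Ntrk2*, in 8 of 22 with *Ntrk3* and in 10 of 53 with *Gfra2*. Neurons with more UMIs reach the limit more easily for every gene, so these shares are descriptions and were not tested.

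Injury was compared with control in each type with at least 10 cells in every library, 9 types in all. The neurons carried the labelled injury: *Atf3*, an injury-induced transcription factor, was at 91.35 and 76.6 CPM in the control libraries and 977 and 312 CPM after injury, and *Sprr1a* went from 0 and 0.249 CPM to 3759 and 943 CPM. None of the 8 genes was called, at an adjusted p under 0.05 with a log2 change of at least 2 in size, in any of the 18 pairs of gene and type that had enough counts, which fell in 5 types. An unadjusted p under 0.05 was reached in 6 of the 18 pairs by edgeR, and DESeq2 called none. The background was as bare, with 0% of 10564 genes called in neuron-like cells, 0% in SGC-like, macrophage-like and pericyte-like cells and 0.195% in connective tissue-like cells. Of the 10564 genes in neuron-like cells, edgeR gave 990 an unadjusted p under 0.05 and DESeq2 called 81. The number of genes under that p in the other types is not given here, so the 6 pairs are not read as a result.

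**Figure D3:**
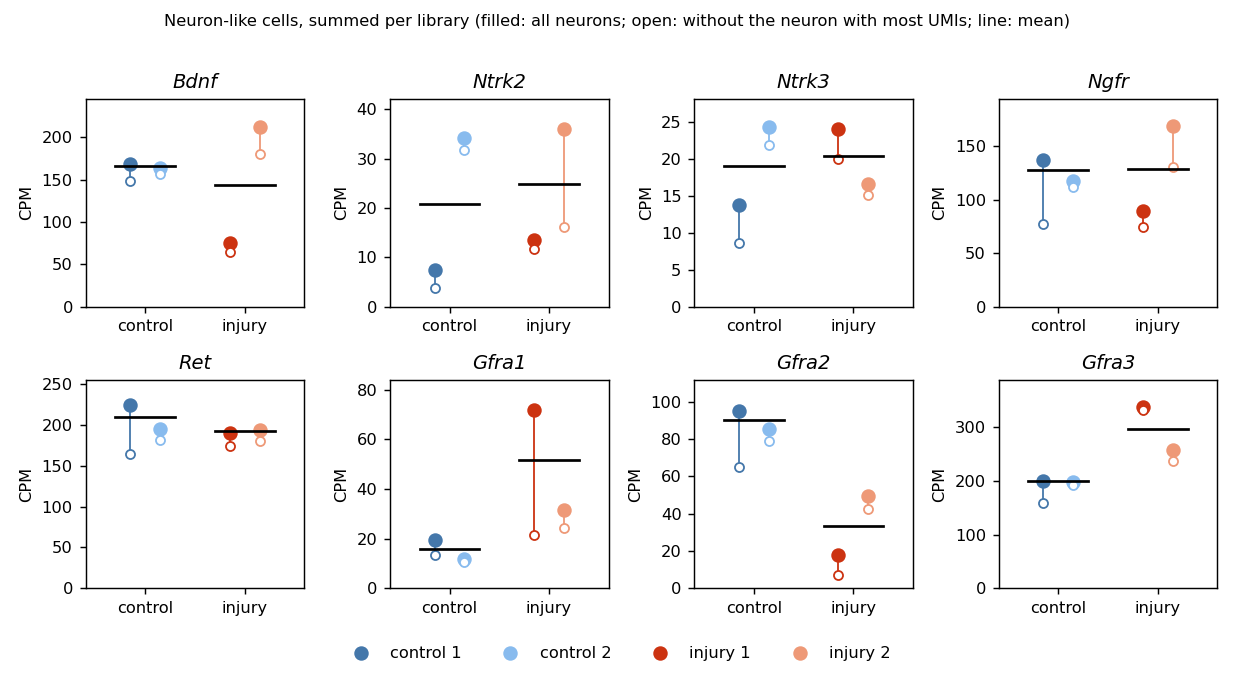
CPM of each gene in neuron-like cells summed per library, control on the left and injury on the right of each panel, with black lines at the mean of 2 libraries. Open circles leave out the neuron with most UMIs of the gene: in injury replicate 1 *Gfra1* then falls from 71.7 to 21.3 CPM, and in injury replicate 2 *Ntrk2* falls from 36.0 to 16.1 CPM.

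Of the RET co-receptors in neurons, *Gfra1* was higher in both injury libraries than in both controls, with a log2 fold change of 1.95 ± 0.52 (SE, edgeR adjusted p = 0.381). *Gfra2* was lower in both, by -1.26 ± 0.42 (adjusted p = 0.457), and *Gfra3* higher in both, by 0.73 ± 0.26 (adjusted p = 0.484). The *Gfra1* value leaned on 1 neuron of injury replicate 1, which gave 85 of its 116 UMIs. *Gfra2* had 29 UMIs in that library, of which 1 neuron gave 18. Without injury replicate 2, *Gfra1* and *Gfra2* were at 2.5 and -2.11, and without injury replicate 1 they were at 1.18 and -0.78. Each of these fits had 1 injury library. *Bdnf*, *Ntrk2*, *Ntrk3*, *Ngfr* and *Ret* had log2 fold changes between -0.08 and 0.30, with adjusted p of 0.888 or more.

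Outside the neurons, *Ngfr*, *Gfra1* and *Gfra2* were lower in both injury libraries than in both controls in connective tissue-like cells, with log2 fold changes of -0.70 ± 0.27, -0.92 ± 0.40 and -1.0 ± 0.34 (SE) and edgeR adjusted p of 0.939, 0.940 and 0.839. *Ntrk2* in SGC-like cells was at 0.28, with overlapping groups. The difference of the injury effect between neuron-like and SGC-like cells was tested as an interaction by edgeR. None of the 8 genes passed, 0% of 11211 genes were called, and no member had an unadjusted p under 0.05. That fit had no library term, so the neuron-like and SGC-like sums of a library entered as independent samples.

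The injury libraries mixed neurons that carried injury genes with neurons that did not. A neuron was called injured-state when *Sprr1a* and in all at least 3 of 7 injury genes had 3 or more UMIs. There were 20 such neurons of 38 in injury replicate 1 and 18 of 87 in injury replicate 2, and none of 217 in the control libraries. Injured-state and other neurons of the same library were compared by edgeR's quasi-likelihood method, library included as a term, which called 4.54% of 7906 genes, 139 higher and 220 lower. The median depth was 38398 and 36030.5 UMIs in injured-state and 27676 and 24484 UMIs in other neurons.

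**Figure D4:**
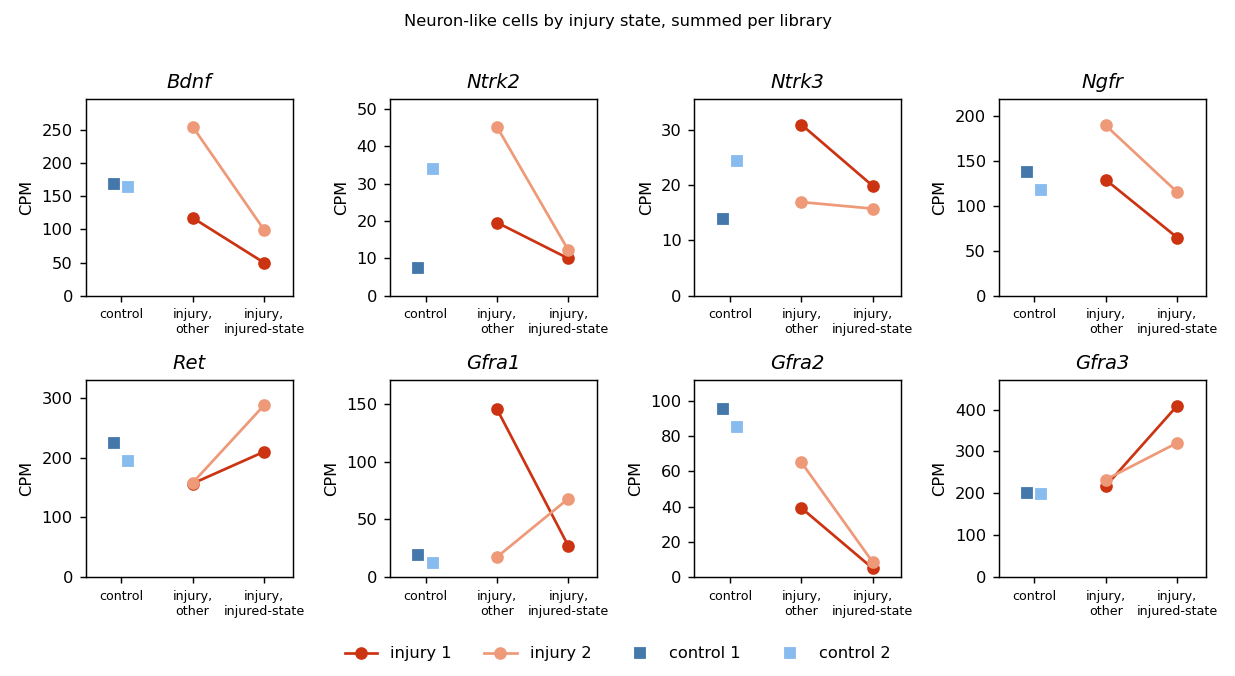
CPM of each gene in neuron-like cells of the control libraries (squares) and, joined by a line for each injury library, in other and injured-state neurons. *Gfra2* falls to 4.97 and 8.5 CPM in injured-state neurons, *Gfra3* rises to 409 and 320.5 CPM, and *Gfra1* moves in opposite directions in the 2 libraries. In other neurons of injury replicate 1, however, 1 neuron gave 85 of the 89 *Gfra1* UMIs.

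*Gfra2* was the 1 gene of the 8 that was called. It was at 39.2 and 65.05 CPM in other neurons of injury replicates 1 and 2 and at 4.97 and 8.5 CPM in injured-state neurons, a log2 difference of -2.81 ± 0.43 (SE, adjusted p = 0.000177). Both control libraries were higher than the other neurons of either injury library, at 95.04 and 85.3 CPM. In control replicate 1, however, 1 neuron gave 44 of the 103 UMIs, and without it the level was 65.12 CPM. The *Gfra2* difference leaned on few UMIs, 5 and 7 in the injured-state neurons. Among other neurons, 1 neuron gave 18 of the 24 UMIs in injury replicate 1 and 1 gave 23 of the 138 in injury replicate 2. On the adjusted p alone, which 12.1% of genes passed, *Bdnf* fell and *Gfra3* rose as well. *Bdnf* went from 118 and 255.5 CPM to 49.75 and 99.6 CPM (-1.18 ± 0.24, adjusted p = 0.00271) and *Gfra3* from 217 and 233 CPM to 409 and 320.5 CPM (0.80 ± 0.25, adjusted p = 0.0425). *Ret* was higher in injured-state neurons of both libraries, at 210.0 and 288 CPM against 157 and 158 CPM (0.77 ± 0.25, adjusted p = 0.0562). *Ngfr* was lower in both, at 64.7 and 115 CPM against 129 and 189.5 CPM (-0.72 ± 0.24, adjusted p = 0.0565). Single neurons weighed on these falls among the other neurons. For *Bdnf*, 1 neuron gave 20 of the 72 UMIs in injury replicate 1 and 1 gave 114 of the 542 in injury replicate 2. For *Ngfr*, 1 neuron gave 25 of the 79 UMIs and 1 gave 117 of the 402.

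*Ntrk2* was at 9.95 and 12.1 CPM in injured-state against 19.6 and 45.3 CPM in other neurons (-1.38 ± 0.47, adjusted p = 0.0692). In injury replicate 2, however, 1 of the other neurons gave 60 of their 96 *Ntrk2* UMIs. The summed SGC markers were at 245 and 455 CPM in injured-state against 635 and 759 CPM in other neurons. The log2 differences of *Gfra1* (-0.12 ± 0.63) and *Ntrk3* (-0.25 ± 0.45) were smaller than their SE. That of *Gfra1* leaned on 1 of the other neurons in injury replicate 1, which gave 85 of their 89 UMIs. Subset markers differed between the states too. All 4 nonpeptidergic markers were lower in injured-state neurons of both libraries, *Mrgprd* at 0 CPM in each against 13.1 and 21.2 CPM. Of the peptidergic markers, *Tac1* was at 100.5 and 25.5 CPM against 2021 and 3003 CPM and *Calca* was also lower in both, while *Adcyap1* was at 141 and 308 CPM against 232 and 181 CPM and *Kit* at 8.96 and 34.0 CPM against 29.4 and 33.9 CPM. Of the C-low threshold mechanoreceptor markers, *Fam19a4* was higher in both libraries, at 65.7 and 60.7 CPM against 14.7 and 37.7 CPM. *Th* was lower in both, at 7.96 and 0 CPM against 24.5 and 81.1 CPM. *Zfp521* was higher in injury replicate 1 alone, and *Slc17a8* was at 6.13 CPM or less. The neurofilament markers *Nefh*, *Pvalb* and *Vsnl1* were lower in injury replicate 1 and higher in injury replicate 2, while *Scn4b* and *Cplx1* were lower in both. The part of subset makeup in the fall of *Gfra2* and *Bdnf* was not tested. Among 20 pathway genes tested, *Dok5*, an adaptor of RET and the Trk receptors, rose (4.54 ± 0.73, adjusted p = 0.000285) and *Sorl1*, a sorting receptor, fell (-2.95 ± 0.55, adjusted p = 0.00112). Both differences rest on few UMIs. *Dok5* had 15 and 26 UMIs in injured-state against 1 and 2 in other neurons, and *Sorl1* had 5 and 3 against 16 and 109.

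The genes whose levels most resembled each of the 8 were found by Pearson's r of log2(CPM + 1) over 51 type and library sums of 17 types. These sums share cells of the same libraries and are given as a description. *Bdnf* was closest to *Mtmr7* and *Syt2* (r = 0.897 and 0.896), *Ret* to *Hecw1* and *Ina* (0.889 and 0.839), and *Gfra3* to *Fam89a*, *Nrn1* and *Scn9a* (0.865, 0.833 and 0.784). *Ntrk2* was closest to *Atp1b2*, *B9d1* and *Pacsin3* (0.903, 0.872 and 0.863) and *Ntrk3* to *Gfra4*, *Scn2b* and *Gprasp2* (0.819, 0.799 and 0.758). The genes with several source types had looser neighbours, *Ngfr* with *Hpca*, *Fndc5* and *Chst8* (0.779, 0.698 and 0.678), *Gfra1* with *Bdh1*, *Frzb* and *Vat1l* (0.695, 0.656 and 0.649) and *Gfra2* with *S1pr3*, *Ncald* and *Ntrk2* (0.748, 0.742 and 0.732).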

How the data were processed

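Single cell RNA-seq of 2 control and 2 injury libraries was analysed from the matrices that the authors deposited, which hold raw UMI counts made with Cell Ranger (build mm10 per the labels), before their cell filters and scaling in Partek. The raw counts were used as deposited.

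For types other than neurons the limits of the methods were applied (UMIs 600 to 15000, genes 500 to 4000, mitochondrial share below 10%). A barcode took the type with the highest share of its markers present, with at least 3 markers and 30% of the list and a lead of 15 percentage points. A marker was present at over 2 times its share in all barcodes. Of all barcodes, 1148 stayed without a name, 356 of them because 2 types were too close, and no doublet caller was run. UMIs were summed per library and type, neuron subset or state. The sums were tested with edgeR 4.0.16 (TMM, filterByExpr, quasi-likelihood, R 4.3.3) over all genes that passed the filter, and with DESeq2 1.42.0 as an alternative. The SE given with an edgeR fold change is the size of the log2 fold change divided by the square root of its F statistic. Each fit was tested on simulated data. The subset neurons had 2 or more of the subset's markers at 2 or more UMIs. Shares at equal depth are expected values after drawing UMIs without replacement. Intervals and limits for counts of 0 cover counting error only.

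The genes followed and the gene lists were chosen with earlier results of these data known. Genes named were the 8 genes, the ligands and the called genes of a pathway list, some of them given as counts, and the 3 genes most like each of the 8, and some of these genes are not reported here. A library pools several mice, and p-values measure the spread between the library sums. Alternatives were another scaling, no filter on low counts, other cell limits, clusters in place of markers, a replicate block and each library left out.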

Additional observations from a re-analysis of the deposited data

How the results depend on the processing

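Against 28 pairs of gene and type called, DESeq2 gave 23, all deposited barcodes 22 and no filter 29, and leaving out each library in turn gave 19 to 26. *Ntrk3* was not tested with all barcodes or without injury replicate 1, because it failed the filter on low counts. With all other cells as 1 sum, 7 pairs were called, 3 of them in neuron-like cells. In that comparison the sign turned for *Ntrk3* in mesenchymal-like cells (-0.147), *Bdnf* in pericyte-like (-1.88) and smooth muscle-like cells (-0.403), and *Ntrk2* (-0.397) and *Ret* (-2.2) in smooth muscle-like cells. Each type then weighs by its UMIs in the sum and no longer equally, and which type turned each sign was not tested.

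The replicate numbers share 2 pairs and do not pair the libraries by the labels. Deviations of the same number correlated at 0.162 to 0.421 over the 9 types. With the replicate block, 0 of the 18 injury pairs were called, as without it, and *Gfra1* in neuron-like cells was at 1.76 (adjusted p = 0.0964). No filter on low counts gave *Gfra1* and *Gfra2* in neuron-like cells an adjusted p of 3.88e-06 and 0.00223 at fold changes under the limit, and the cause was not tested. Leaving out each library in turn gave 0 to 2 called members for injury. The log2 fold changes then ranged over -0.928 to 0.432 for *Bdnf* in neuron-like cells, -0.517 to 1.85 for *Ntrk2* in neuron-like cells, -0.169 to 0.644 for *Ntrk3* in neuron-like cells, -0.298 to 0.495 for *Ngfr* in neuron-like cells, -0.122 to 0.178 for *Ret* in neuron-like cells, -0.0775 to 0.863 for *Ntrk2* in SGC-like cells and -0.645 to 0.148 for *Gfra2* in SGC-like cells.

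For neuron subsets, a minimum of 10 neurons left 2 subsets and 5 calls in place of 10, with *Ngfr* in peptidergic neurons at -0.866, since only large-diameter neurofilament neurons remained to compare with. Without control replicate 2 or injury replicate 2 no subset fit was possible, and the injured-state comparison has 2 libraries, of which none can be left out. Requiring 1 more injury gene selected the same 38 neurons. *Gfra2* was called in injured-state neurons under all 5 alternatives run, of which the requirement of 1 more injury gene only repeated the main fit. Over all genes, the 0 called for injury in neuron-like cells became 81 with DESeq2, 217 with no filter, 18 with the replicate block, 5 with clusters and 13 to 246 with a library left out, and the 359 called in injured-state neurons became 162 with DESeq2. The interaction's 0 became 70 with no filter and 0 to 11 with a library left out. The causes were not tested.

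At 2000 UMIs per cell the shares of neuron-like cells with a UMI were 35.4% for *Gfra3*, 25.1% for *Ret*, 21.1% for *Bdnf*, 17.6% for *Ngfr*, 8.62% for *Gfra2*, 5.83% for *Ntrk2*, 4.69% for *Ntrk3* and 2.47% for *Gfra1*. Without thinning they were 73.4%, 73.7%, 60.2%, 52.3%, 32.5%, 29.2%, 29.2% and 17.3%. Depth limits *Gdnf*, *Artn* and *Ntf5* and every value on fewer than 10 UMIs.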
